A study of Mus musculus with 8 samples.

Results

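The genes described here are 10 that mark Langerhans cells or that build, load and switch on MHC class II molecules: Cd207, H2-Aa, H2-Ab1, H2-Eb1, Cd74, H2-DMa, H2-DMb1, Ciita, Epcam and Itgax. They were picked by name among the 55276 gene symbols of a raw count table from sorted mouse esophageal epithelium. The set was selected on measured values, since Cd207 and H2-Eb1 were lower in the fraction called Cyto-ID High while general leukocyte genes as a group were taken not to be. All 10 were found in the table, and all 10 were among the 17344 genes with enough counts to be fitted. Because of that choice, the difference of these genes between the fractions is given below as a description. The calls that the fit over all genes gave them are listed, but they are no test of the set.

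There were 8 libraries of bulk RNA, from 4 C57BL6 mice aged 14 to 15 weeks (Female1, Female2, Male1 and Male2), and the labels name no transgene, mutation or drug. The epithelial layer of each esophagus was peeled and digested to single cells, and the live cells (DAPI negative) that carried integrin-b1 on their surface were kept. These were sorted by Cyto-ID, a dye that labels autophagic vesicles, so that each mouse gave 1 Cyto-ID Low and 1 Cyto-ID High library. Integrin-b1 is also carried by leukocytes and connective tissue cells, and the protocol names no antibody against a leukocyte protein. Libraries held 26285150 to 29301054 counts. In bulk RNA, fewer cells of a type and less RNA per cell cannot be told apart.

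Langerhans cells are antigen-presenting cells that live within stratified squamous epithelia such as the epidermis and the lining of the mouth and esophagus. They take up antigen, carry it to lymph nodes and show it to CD4+ T cells on MHC class II molecules. In the mouse a class II molecule is an alpha and a beta chain, either H2-Aa with H2-Ab1 or an E alpha chain with H2-Eb1. C57BL6 mice lack a working E alpha gene, and the annotation lists it as the pseudogene H2-Ea-ps. Cd74, the invariant chain, holds the peptide groove shut until H2-DMa with H2-DMb1 exchange its remnant for an antigenic peptide. The coactivator CIITA, the product of Ciita, is recruited to the promoters of these genes by a complex of RFX, CREB and NF-Y proteins bound at elements called the X and Y boxes. Cd207 encodes langerin, the lectin that forms Birbeck granules and is used as a marker of Langerhans cells. Epcam is an adhesion molecule of both Langerhans and epithelial cells, and Itgax encodes CD11c, an integrin chain of dendritic cells.

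The class II promoters are shown because they carry the elements through which CIITA acts on several members together. RefSeq promoter windows of build GRCm38.p6, from 250 bases before to 50 after each start, were found for 7 of the 10 members, in 8 windows. No window was found for H2-Ab1, Cd74 or Ciita. The windows were searched on both strands for CTNGNAAC, letters that fit the start of the X box and do not overlap the second word, and for GATTGG, the core of the Y box. These letters were chosen after the promoters had been read. Of the members, H2-Eb1, H2-Aa and H2-DMb1 held both words in that order, with starts 34, 35 and 35 bases apart. Their bases 130 to 31 before the start are printed 5′ to 3′ on the gene's strand, with both words in capitals. They lie at chr17:34305737-34305836 on the plus strand for H2-Eb1, at chr17:34287854-34287953 on the minus strand for H2-Aa and at chr17:34153061-34153160 on the plus strand for H2-DMb1. The starts are those of RefSeq. For H2-DMb1 the GENCODE gene span given below begins earlier, at 34153072, so that both words lie inside that span.
H2-Eb1: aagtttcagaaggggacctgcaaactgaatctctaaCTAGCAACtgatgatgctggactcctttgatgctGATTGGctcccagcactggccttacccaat
H2-Aa: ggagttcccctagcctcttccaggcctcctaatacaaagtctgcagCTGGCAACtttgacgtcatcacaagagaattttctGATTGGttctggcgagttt
H2-DMb1: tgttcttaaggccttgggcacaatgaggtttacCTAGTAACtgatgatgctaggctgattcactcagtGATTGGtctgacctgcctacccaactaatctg
Among 32851 windows of this length, 13.15% held CTNGNAAC, 16.11% held GATTGG and 0.1309% held both in that order with starts at most 40 bases apart. The Itgax window held the first word alone, 1 of the 2 H2-DMa windows the second alone, and the Cd207 and Epcam windows neither. A match is a description of letters and not a bound site.

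In GENCODE release M21 (GRCm38), 5 of the class II members lie together on chromosome 17, H2-DMa at 34119541 to 34139101, H2-DMb1 at 34153072 to 34160230, H2-Ab1 at 34257689 to 34269419, H2-Aa at 34282744 to 34287823 and H2-Eb1 at 34305867 to 34316674. Epcam is on the same chromosome at 87635979 to 87651129, outside that cluster. Cd207 spans 83671215 to 83677857 on chromosome 6, Ciita 10480059 to 10528418 on chromosome 16, and Itgax 128129547 to 128150657 on chromosome 7. Exons of H2-DMa overlap those of Brd2, exons of Ciita overlap those of Dexi, both on the opposite strand, and exons of Cd74 overlap Mir5107 on the same strand. Whether the counting used strand is not given in the sources used here, so the values of H2-DMa and Ciita are uncertain to that extent. How reads shared by Cd74 and Mir5107 were assigned is not given either.

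The label squamous cells was checked against keratinocyte markers. The summed level of 7 basal markers was 20547 to 24411 CPM (counts relative to the library's total, after TMM, edgeR's scaling by a trimmed mean of log ratios) in Low and 2666 to 4369 in High, and that of 6 suprabasal markers 7740 to 23400 in Low and 128974 to 221971 in High. Over all genes, 4385 of 17344 were called lower and 4055 higher in High, by edgeR's quasi-likelihood test with a Benjamini-Hochberg adjusted p under 0.05. Scaling by total counts alone shifted the median log2 fold change of all genes by −0.565, and it gave 8514 lower and 2194 higher. Some libraries stood apart. High Male2 was low in leukocyte, fibroblast, endothelial and muscle markers alike, High Female2 less so. Female2 held 272 counts (Low) and 985 counts (High) of the gastric gene Pgc, against 0 to 14 elsewhere.

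Langerin RNA was scarce in every library and scarcer in the High one of every mouse. Cd207 stood in Low at 1.45, 0.302, 1.15 and 1.60 CPM for Female1, Female2, Male1 and Male2, from 47, 11, 37 and 53 counts. In High it stood at 0.232, 0.131, 0.267 and 0.309 CPM in the same order of mice, from 6, 3, 7 and 6 counts. The Low library of Female2 was low for this fraction, just under the High library of Male2, so the groups overlapped. Within a mouse, the ratio of Low to High was 6.27, 2.32, 4.31 and 5.18 for Female1, Female2, Male1 and Male2. With single-digit counts in High, these ratios carry a wide counting error. The fitted log2 fold change was −2.24 (SE 0.53), and with single libraries left out it ran from −2.52 without Low Female2 to −1.73 without Low Female1.

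Of the other members that mark the cell, Epcam followed a like course at a far higher level and Itgax did not. Epcam, which keratinocytes also express, stood in Low at 150.1, 126.6, 152.2 and 163.8 CPM in Female1, Female2, Male1 and Male2, and in High at 67.9, 78.2, 58.2 and 87.8. All High libraries were below all Low libraries, with a fitted log2 fold change of −1.02 (SE 0.16). Itgax stood at 2.29, 1.51, 1.99 and 1.87 CPM in Low and at 1.85, 1.09, 2.10 and 0.206 in High. Here the High libraries of Female1 and Male1 lay within the Low range and High Male2 lay 9.09-fold under its Low partner. The fitted value of Itgax was −0.53 (SE 0.52), and with single libraries left out it ran from −1.14 without High Male1 to −0.16 without High Male2.

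**Figure D1:**
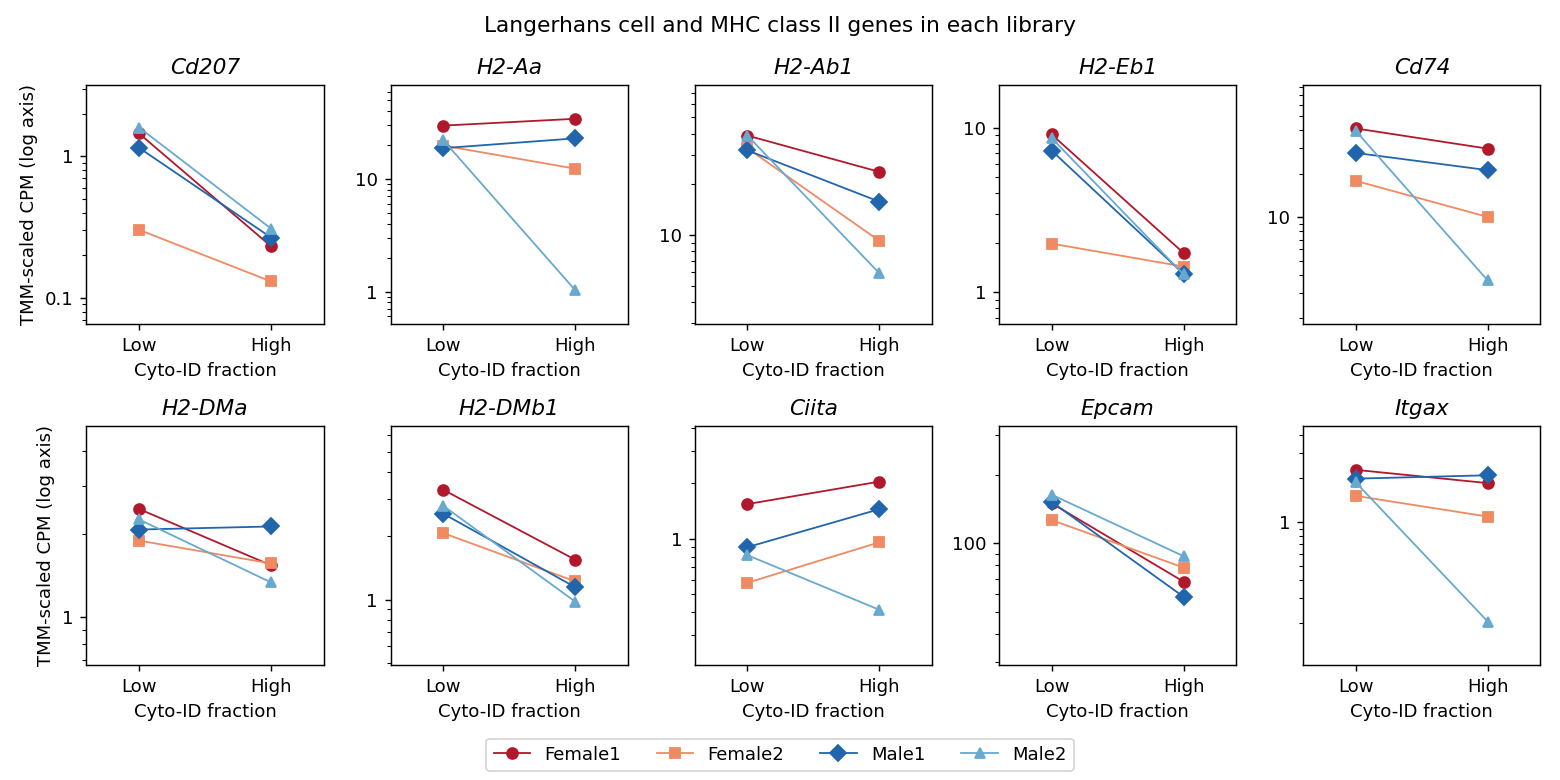
TMM-scaled CPM (log axis, its range set for each gene) of the 10 members in the Cyto-ID Low and High library of each mouse, a point per library and a line per mouse. H2-Eb1, H2-DMb1, Epcam and H2-Ab1 show every High point under every Low point, while H2-Aa, Itgax and Cd74 drop steeply in Male2 alone.

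The chains of the A molecule parted from each other. H2-Aa, the A alpha chain, stood in Low at 29.9, 19.8, 18.8 and 22.2 CPM in Female1, Female2, Male1 and Male2. In High it stood at 34.3, 12.4, 23.0 and 1.03 CPM. It was thus higher in High than in Low in Female1 and Male1, lower in Female2, and 21.5-fold lower in Male2, where High held 20 counts against 734. The fitted log2 fold change was −0.42 (SE 0.65), and −0.78 with the mouse as a block. With single libraries left out it ran from −1.20 without High Male1 to 0.01 without High Male2, with −0.85 without High Female1, −0.24 without High Female2 and −0.25 without Low Male2. H2-Ab1, the A beta chain, stood at 39.0, 32.8, 31.8 and 39.0 CPM in Low and at 23.7, 9.23, 15.8 and 5.92 in High. For this chain the groups did not overlap, and the ratio of Low to High was 1.64, 3.55, 2.02 and 6.59 for the same mice in turn. Its fitted value was −1.41 (SE 0.35), running from −1.79 without High Female1 to −1.14 without High Male2.

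The ratio of these chains within a library, which no scaling between libraries touches, shows the same parting. Counts of H2-Aa per count of H2-Ab1 were 0.766, 0.606, 0.591 and 0.568 in Low and 1.45, 1.34, 1.46 and 0.174 in High, in the order Female1, Female2, Male1, Male2. The ratio in High was above every Low ratio in 3 mice and below all of them in Male2. No gene length enters the comparison between libraries, but the ratio is not one of molecules, since the transcripts differ in length.

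H2-Eb1, the E beta chain, whose promoter is among those printed above, was the class II member with the steepest fitted difference. It stood in Low at 9.11, 1.98, 7.27 and 8.66 CPM in Female1, Female2, Male1 and Male2, and in High at 1.74, 1.44, 1.30 and 1.29. The High libraries lay close together and all under the Low libraries, but Low Female2 was only 1.38-fold above its High partner, where the other 3 mice showed 5.25-fold to 6.74-fold. The fitted log2 fold change was −2.20 (SE 0.44), and with single libraries left out it ran from −2.56 without Low Female2 to −1.81 without Low Female1. Low Female2 was the lowest of the 4 Low libraries for 8 of the 10 members, Cd207 and H2-Eb1 among them, and lay within the range of the others for H2-Aa and H2-Ab1.

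Cd74, the invariant chain, stood at 41.2, 17.9, 27.9 and 39.5 CPM in Low and at 29.9, 10.1, 21.2 and 3.65 in High. High was below Low in each mouse, by 1.38-fold, 1.78-fold and 1.32-fold in Female1, Female2 and Male1 and by 10.8-fold in Male2, and the groups overlapped. The fitted value was −0.99 (SE 0.53), and with single libraries left out it ran from −1.47 without High Female1 to −0.61 without High Male2. H2-DMb1, the beta chain of the peptide exchange factor, stood at 3.30, 2.06, 2.55 and 2.78 CPM in Low and at 1.54, 1.22, 1.14 and 0.977 in High. Its groups did not overlap, with ratios of Low to High between 1.69 and 2.84 and a fitted value of −1.13 (SE 0.27). Its partner H2-DMa stood at 2.18 ± 0.25 CPM in Low and 1.65 ± 0.34 in High (SD, n = 4 each), higher in Low in 3 mice with a ratio of Low to High of 0.975 in Male1, and had a fitted value of −0.40 (SE 0.26). With scaling by total counts alone H2-DMa came to −0.94 and would be called lower.

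Ciita, which encodes the coactivator of class II transcription, was the only member with a fitted value above 0. It stood at 1.54, 0.577, 0.901 and 0.815 CPM in Low and at 2.05, 0.958, 1.45 and 0.412 in High. High was above Low in Female1, Female2 and Male1 and below it in Male2, and the groups overlapped. The fitted log2 fold change was 0.33 (SE 0.48), and with scaling by total counts alone it was −0.16. With 1 library left out it came to 0.0035 without High Male1, 0.036 without High Female1, 0.10 without Low Female2, and 0.61 without either Low Female1 or High Male2.

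Of the 10 members, 5 would be called lower by edgeR's quasi-likelihood test (Cd207, H2-Ab1, H2-Eb1, H2-DMb1 and Epcam) and 0 higher. Of all tested genes 25.3% were called lower and 23.4% higher. High was below Low in each of the 4 mice for 6 members, the 5 named and Cd74, against 34.4% of all tested genes. All High libraries were below all Low libraries for 4 members (H2-Ab1, H2-Eb1, H2-DMb1 and Epcam), against 24.9% of all tested genes. The median fitted log2 fold change was −1.01 over the members and −0.09 over all tested genes. Nothing is read from these counts, since the set was selected on this contrast. Nearest to the threshold among the members were H2-Ab1 on the inside at −1.41 (SE 0.35) and Cd74 on the outside at −0.99 (SE 0.53). H2-Ab1 was no longer called without both Female2 libraries, and Cd74 was called lower with no filter on low counts.

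Levels of different genes were compared per kilobase of exon. In Low the order of CPM per kilobase was Epcam (67.5 ± 7.1, SD, n = 4), Cd74 (18.8 ± 6.5), H2-Ab1 (13.9 ± 1.5), H2-Aa (5.97 ± 1.31) and H2-Eb1 (3.48 ± 1.69). Then came H2-DMb1 (1.59 ± 0.31), Cd207 (0.740 ± 0.381), H2-DMa (0.632 ± 0.071), Itgax (0.399 ± 0.067) and Ciita (0.101 ± 0.043). Of these neighbours, Cd74 and H2-Ab1, H2-Aa and H2-Eb1, H2-Eb1 and H2-DMb1, and Cd207 and H2-DMa lay within their spread of each other, in that their ranges of mean ± SD overlapped. In High the order began Epcam (33.3 ± 5.8), Cd74 (9.65 ± 6.94), H2-Ab1 (5.32 ± 3.06), H2-Aa (4.66 ± 3.76), H2-Eb1 (0.740 ± 0.108) and H2-DMb1 (0.726 ± 0.141). It ended with H2-DMa (0.477 ± 0.099), Itgax (0.273 ± 0.178), Cd207 (0.154 ± 0.050) and Ciita (0.128 ± 0.073). By the same measure the High neighbours overlapped throughout Cd74, H2-Ab1 and H2-Aa, between H2-Eb1 and H2-DMb1, and from H2-DMa through Itgax and Cd207 to Ciita.

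The wording of the choice, that general leukocyte genes did not fall, held in 2 of the 4 mice. The summed level of 15 general leukocyte genes, among them Ptprc (CD45), Coro1a and Laptm5, was 63.2, 51.5, 42.5 and 53.9 CPM in Low and 71.9, 29.6, 50.4 and 11.1 in High, in the order Female1, Female2, Male1, Male2. It was higher in High in Female1 and Male1 and lower in Female2 and Male2. Of the 15 genes, edgeR's quasi-likelihood test called 1 lower (Arhgdib) and 1 higher (Cd52), and 13 did not pass. Their median log2 fold change was −0.23 in the fit with sex and −0.58 with the mouse as a block. It was −0.65 with voom and −0.72 with total counts. With single libraries left out it ran from −0.88 without High Male1 to 0.05 without High Male2, with −0.70 without High Female1, −0.13 without High Female2 and −0.13 without Low Male2.

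Markers of other cells moved with them from library to library. The summed fibroblast markers ran from 317 to 501 CPM in Low and from 38.7 to 471 in High, the macrophage and monocyte markers from 52.5 to 84.9 and from 22.6 to 118, and the T and NK cell markers from 7.91 to 14.9 and from 0.514 to 15.7. High Male2 held the lowest of these High sums in each list. In it Cd68, a macrophage marker that was called higher in High and was higher in all 4 mice, made up 19.3 of the 22.6 CPM of the macrophage and monocyte sum. In that library 8 of 13 T and NK cell markers, 7 of 11 mast cell and granulocyte markers and 2 of 14 macrophage and monocyte markers had no count, and the log2 difference of Ptprc from its Low partner was −4.14. B cell markers summed to 1.93 to 2.50 CPM in Low and 1.18 to 4.44 in High. The part of these other cells in the values of the members was not tested.

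Conventional dendritic cells also express Itgax and class II genes, and they were covered by 12 markers, of which 9 were fitted. EdgeR's quasi-likelihood test called 1 of them lower (Fscn1, which basal epithelial cells can also express) and 0 higher, with a median log2 fold change of −0.51. Clec10a, a lectin of dendritic cells and macrophages, had 126, 93, 60 and 77 counts in Low and 113, 24, 61 and 0 in High, in the order Female1, Female2, Male1, Male2. Irf8, a factor of dendritic cell development, had 78, 55, 45 and 65 counts in Low and 64, 16, 70 and 2 in High. Both were lowest in Male2 and next lowest in Female2 among the High libraries, as H2-Aa was, and so in CPM were Itgae, Ccr7, Cd209a and Irf4. The other 6 markers of the list did not show that order, though Flt3, Batf3 and Clec9a were lowest in the same pair of libraries. Fscn1 was highest in Male2 among the High libraries, with 1261 counts against 371 to 798. Flt3 had 12, 1, 9 and 1 counts and Zbtb46 18, 11, 8 and 1 in High, and Xcr1 was higher in High in all 4 mice, from very few counts. Of the defining markers, Xcr1 had 1 to 6 counts and Clec9a 0 to 4 in each library, too few to be fitted. Their part in the values of the members was not tested.

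**Figure D2:**
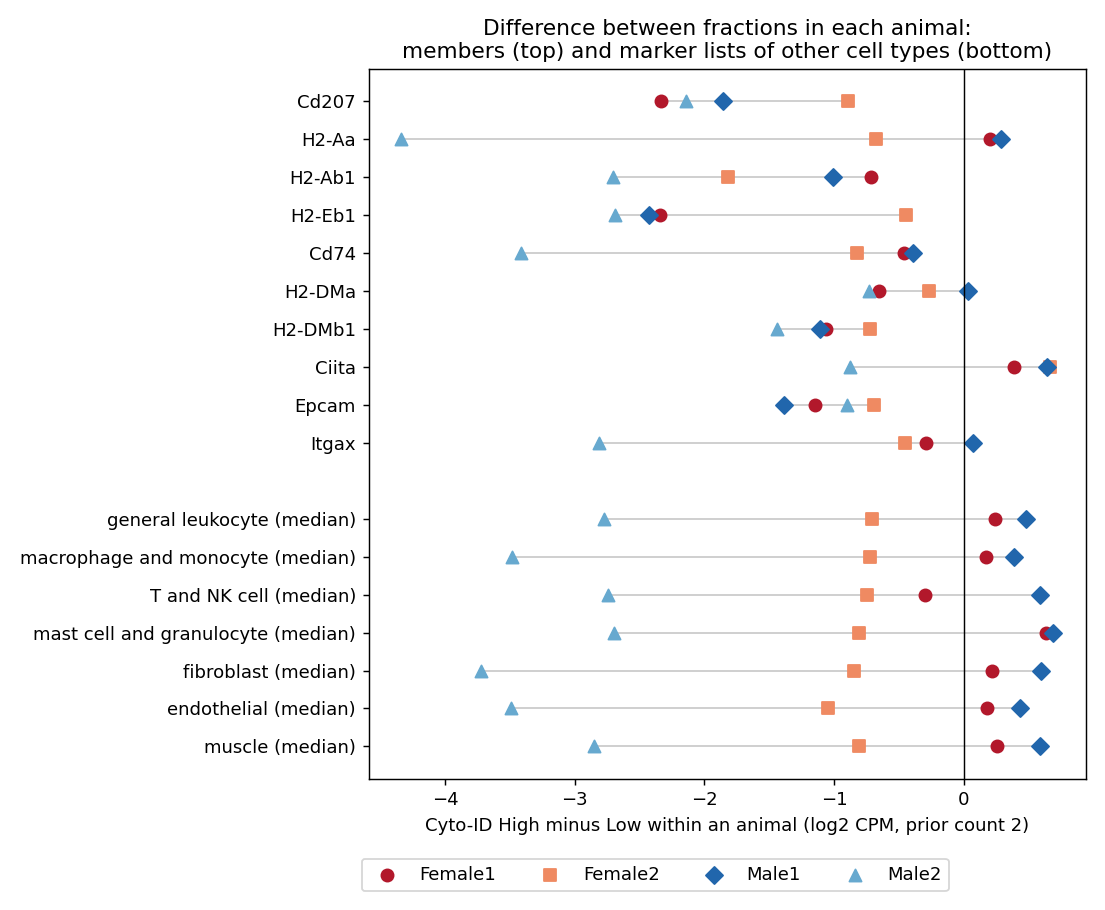
High minus Low on the log2 CPM scale (prior count 2) in each mouse, a point per mouse, for the 10 members (top) and for the median gene of 7 marker lists of other cell types (bottom). Cd207, H2-Ab1, H2-Eb1, Cd74, H2-DMb1 and Epcam lie left of 0 in all 4 mice. The marker lists lie far left in Male2, less so in Female2, and mostly right of 0 in Female1 and Male1.

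Set beside these leukocyte sums, the members ranged from close correlation to little. Over the 8 libraries, Pearson's r of log2 CPM with the summed leukocyte level was 0.981 for H2-Aa, 0.952 for Itgax, 0.935 for Cd74, 0.842 for H2-Ab1 and 0.743 for Ciita. It was 0.662 for H2-DMa, 0.614 for H2-DMb1, 0.423 for H2-Eb1, 0.307 for Cd207 and 0.175 for Epcam. With Krt5, the keratin of basal keratinocytes, it was 0.949 for Epcam, 0.893 for H2-DMb1, 0.832 for H2-Eb1, 0.829 for Cd207 and 0.788 for H2-Ab1, then 0.636 for H2-DMa, 0.526 for Cd74, 0.352 for Itgax, 0.279 for H2-Aa and −0.214 for Ciita. These are descriptions over libraries that share their depth scaling and fall into 2 fractions of 4 mice, and High Male2 lies far from the rest.

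A ratio within each library, free of that scaling, was taken over 13 leukocyte genes, leaving out Cd52 and Arhgdib, which differed between the fractions. That choice was made after the data were seen. H2-Aa held 58.0, 53.5, 59.7 and 57.0 counts per 100 of these leukocyte counts in Low and 57.2, 57.7, 55.7 and 26.3 in High, the last from 20 and 76 counts. In 7 of the 8 libraries this ratio thus lay between 53.5 and 59.7, while the leukocyte counts themselves ran from 492 to 1666. With all 15 genes it ran from 38.6 to 47.8 in those libraries and was 9.30 in High Male2, where Cd52 and Arhgdib held 139 of 215 leukocyte counts. H2-Ab1 stood at 75.8 to 101 per 100 leukocyte counts in Low and at 39.5, 43.1, 38.2 and 151 in High, so that High Male2 was above every Low library and the other High libraries below all of them. With all 15 leukocyte genes it stood at 61.7 to 75.0 in Low and at 33.0, 31.2, 31.3 and 53.5 in High, so that High Male2 was then below every Low library too. Cd207 stood at 2.82, 0.815, 3.65 and 4.11 per 100 in Low and at 0.385, 0.610, 0.646 and 7.89 in High. H2-Eb1 stood at 17.7, 5.33, 23.1 and 22.3 per 100 in Low and at 2.89, 6.71, 3.14 and 32.9 in High. In Female1 and Male1 both were several times lower per leukocyte count in High. In Female2 the 2 fractions were close, and in Male2 the ratio was higher in High. The Male2 direction turned with all 15 leukocyte genes, where Cd207 stood at 2.97 per 100 in Low and 2.79 in High and H2-Eb1 at 16.1 and 11.6. The Male2 value of Cd207 rests on 6 counts of Cd207.

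**Figure D3:**
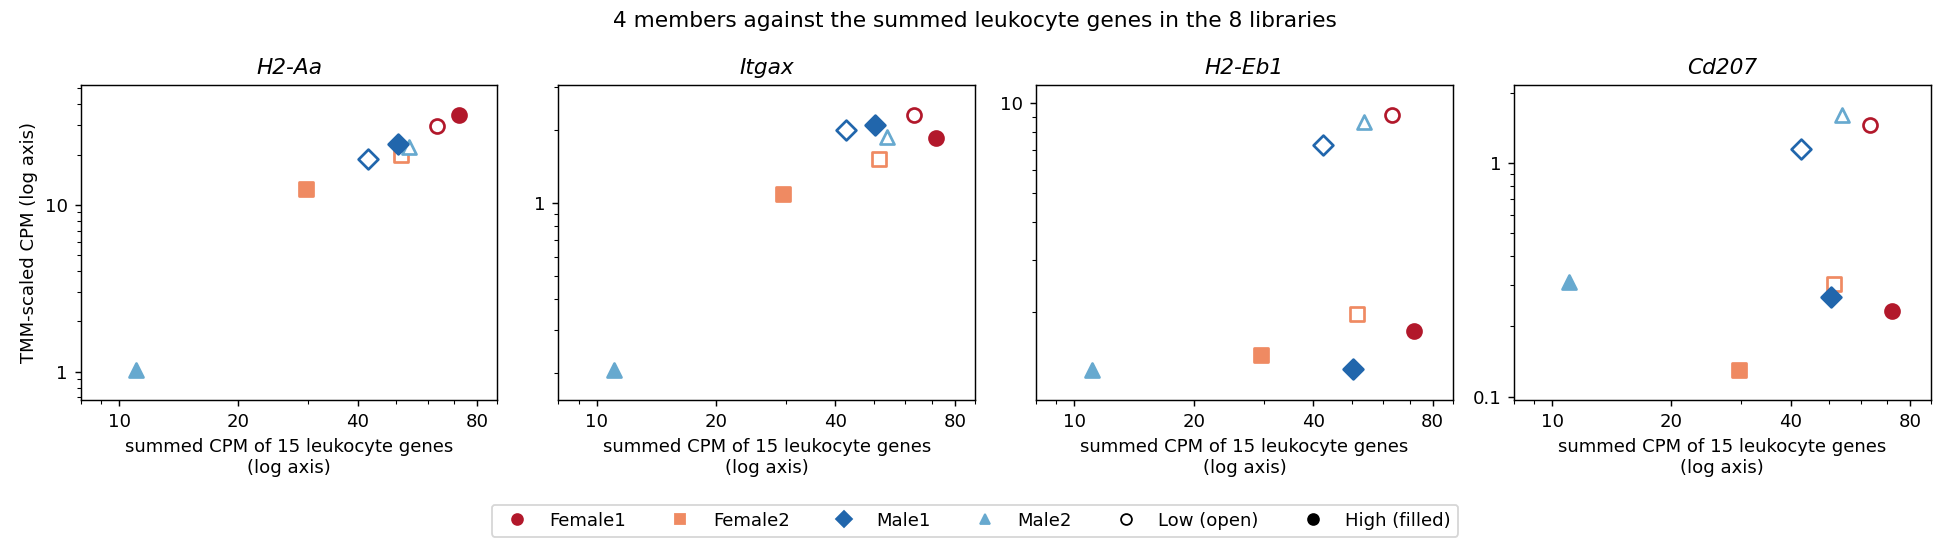
TMM-scaled CPM of H2-Aa, Itgax, H2-Eb1 and Cd207 against the summed CPM of 15 leukocyte genes, log axes, with open Low and filled High points coloured by mouse. H2-Aa and Itgax lie higher where the leukocyte sum is higher, in both fractions, while H2-Eb1 and Cd207 show 3 Low libraries standing above all the others.

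Among 14475 other genes with a mean of at least 1 CPM, those with a pattern over the 8 libraries most like Cd207 were Fam126a (Pearson's r of log2 CPM 0.984), Has2 (0.980), Sgms2 (0.979), Tpm1 (0.978) and Tnrc6a (0.971). Has2 encodes a hyaluronan synthase, Sgms2 a sphingomyelin synthase and Tpm1 a tropomyosin. Of the members, H2-Eb1 came closest to Cd207, with r of 0.962 and rank 12, before H2-DMb1 (0.858, rank 423), Epcam (0.847, rank 515), H2-DMa (0.745, rank 2177), H2-Ab1 (0.693, rank 3049) and Cd74 (0.608, rank 4064). Itgax (0.376), H2-Aa (0.261) and Ciita (0.030) came later, as did Ptprc (0.302), whereas Krt5 had r of 0.829 and rank 724. The libraries share fractions and mice, so these values are a description only.

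Sex was not used in choosing the members. On counts summed over both fractions of a mouse, 2 male against 2 female, edgeR's quasi-likelihood test with Benjamini-Hochberg adjustment called 0 of the 10 members, and 0 had an unadjusted p under 0.05. Of all 19687 genes tested it called 4 (0.0203%), with 284 at an unadjusted p under 0.05, and DESeq2 called 9 genes and 0 members. The sex by fraction interaction was called for 0 of 17344 genes (0%), with 19 at an unadjusted p under 0.05, and for 0 members, with 0 unadjusted. DESeq2 also called 0, with 5 genes unadjusted, and the fit with the mouse as a block called 0, with 38 unadjusted. No difference between the sexes was thus detected in these genes. With 2 mice per sex and the spread between mice shown above, this does not show that the sexes are alike.

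The wider pathway was described by 68 listed genes that are no members, of which 60 were fitted. EdgeR's quasi-likelihood test with Benjamini-Hochberg adjustment over all genes called 21 lower and 12 higher in High, and 27 did not pass. Over all tested genes 25.3% were called lower and 23.4% higher, the shares beside which the count of each list below stands. As a group the 60 genes had a median of −0.41 (log2 fold change), against −0.09 over all tested genes. Of the other class II chains, H2-Ea-ps (−0.22) and H2-DMb2 (−0.55) were fitted and neither passed, and H2-Eb2, H2-Oa and H2-Ob had too few counts to be fitted. In High Male2 H2-Ea-ps had 0 counts and H2-DMb2 1 count, where the other High libraries had 9 to 22 and 5 to 24.

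Of the 7 genes of the class II transcription complex, 5 fell and 0 rose, beside 25.3% and 23.4% of all tested genes. Rfx5, the DNA-binding subunit of RFX, fell from 33.1 to 12.7 CPM (log2 fold change −1.40, SE 0.21, adjusted p = 0.000472 by edgeR's quasi-likelihood test), with High libraries at 8.49 to 18.2 CPM and Low libraries at 24.9 to 40.5. Creb1, a CREB factor of the complex, fell by 0.73 on the log2 scale (SE 0.14, adjusted p = 0.0017), and Nfya, an NF-Y subunit, by 0.77 (SE 0.16). Nfyb and Rfxap fell as well, while Rfxank (0.16) and Nfyc (−0.11) did not pass. These genes act at many promoters other than those of class II.

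On the interferon gamma route to Ciita, Irf1 and Ifngr1 fell and Ifngr2 rose. Irf1, an interferon-induced factor that acts on a Ciita promoter, stood at 59.1, 80.2, 71.6 and 74.1 CPM in Low and at 10.8, 14.4, 10.1 and 22.0 in High (log2 fold change −2.33, SE 0.24, adjusted p = 5.37e-05 by edgeR's quasi-likelihood test). All its High libraries were under all its Low libraries. Of the receptor chains, Ifngr1 fell by 0.54 on the log2 scale (SE 0.15, adjusted p = 0.0145) and Ifngr2 rose by 1.41 (SE 0.18, adjusted p = 0.000141). Ifng itself had 4 counts over the Low libraries and 0 over the High ones, and it was not fitted.

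Of 8 genes of antigen processing and class II turnover, 4 rose and 0 fell, where 23.4% and 25.3% of all tested genes did. Ctsd, the lysosomal protease cathepsin D, stood at 277, 300.0, 218 and 347 CPM in Low and at 1062, 1097, 1007 and 1377 in High (log2 fold change 1.99, SE 0.20, adjusted p = 4.06e-05 by edgeR's quasi-likelihood test). March8, a ubiquitin ligase that removes class II and other proteins from the surface, rose by 1.31 (SE 0.20). Ctsb, cathepsin B, rose by 0.80 (SE 0.14) and Ifi30 was also called higher, but with scaling by total counts alone these came to 0.23 and 0.14 and were not called. Ctss, the cathepsin that trims the invariant chain in antigen-presenting cells, did not pass (−0.26). It stood at 0.257 CPM in High Male2 and at 7.10 to 19.2 CPM in the other High libraries. Cathepsins D and B act in the lysosomes of most cells.

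Of 5 costimulatory genes, 3 fell, Icosl by 1.21 on the log2 scale (SE 0.19), Cd80 by 1.58 (SE 0.33, adjusted p = 0.00296 by edgeR's quasi-likelihood test) and Cd83 by 1.62 (SE 0.49, adjusted p = 0.0205). Icosl, a ligand for the T cell receptor ICOS, was at 38.8 to 62.3 CPM in Low and 16.6 to 27.7 in High. Of 14 other genes known from Langerhans cells, 5 fell and 2 rose. Tgfbr2, a receptor chain for TGF-beta, fell by 2.25 (SE 0.19), Mfge8, a secreted bridge to apoptotic cells, by 2.12 (SE 0.22) and Ahr, the aryl hydrocarbon receptor, by 0.97 (SE 0.30). Ahr was lower in High in 3 mice and higher in Female2, by 0.22 on the log2 scale, and its groups overlapped. Ahr, at 262, 86.6, 245 and 211 CPM in Low, showed Low Female2 apart from the other Low libraries, as Cd207 and H2-Eb1 did. Tgfbr1 and Id2 were also called lower. Cd24a, a surface glycoprotein, rose by 2.60 (SE 0.25) and Tnfrsf11a, the receptor RANK, by 2.06 (SE 0.28). Keratinocytes express several of these genes, and the list shares Csf1r and Adgre1 with the macrophage markers.

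Among 11 fitted genes by which an epithelium supports Langerhans cells, 6 fell and 3 rose, beside the same shares of all tested genes. Il34, the keratinocyte cytokine on which epidermal Langerhans cells depend, stood at 2.72, 1.79, 1.18 and 3.11 CPM in Low and at 16.4, 17.7, 13.04 and 19.8 in High. Ccl20, the chemokine ligand of CCR6, stood at 0.679, 1.02, 0.932 and 1.99 CPM in Low and at 11.3, 12.97, 10.4 and 17.0 in High. Both rose, Il34 by 2.93 on the log2 scale (SE 0.30, adjusted p = 4.79e-05 by edgeR's quasi-likelihood test) and Ccl20 by 3.52 (SE 0.31, adjusted p = 2.26e-05), and for neither gene did the groups overlap. Cdh1, E-cadherin, rose by 0.68 (SE 0.22), but at 0.12 it was not called with scaling by total counts alone. Tgfb1 fell by 2.20 (SE 0.18) and Itgb6, an integrin chain that activates TGF-beta, by 1.32 (SE 0.33). Itgb6 was lower in High in 3 mice, while its log2 difference in Female2 was 0.02, and its groups overlapped. Cx3cl1 fell by 0.51 (SE 0.16), and Csf1, Tgfb2 and Tslp were also called lower.

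Of 6 fitted genes that lie in or near the class II region and mostly serve class I processing, 1 rose and 0 fell. Tapbp, tapasin, stood at 56.6 to 70.9 CPM in Low and 129 to 174 in High (log2 fold change 1.23, SE 0.14, adjusted p = 8.86e-05 by edgeR's quasi-likelihood test). Psmb8, an immunoproteasome subunit, did not pass, and stood at 4.82, 1.22, 2.63 and 0.154 CPM in High of Female1, Female2, Male1 and Male2, the order seen for H2-Aa. No called pathway gene changed its direction under the scaling by relative log expression or by total counts.

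**Figure D4:**
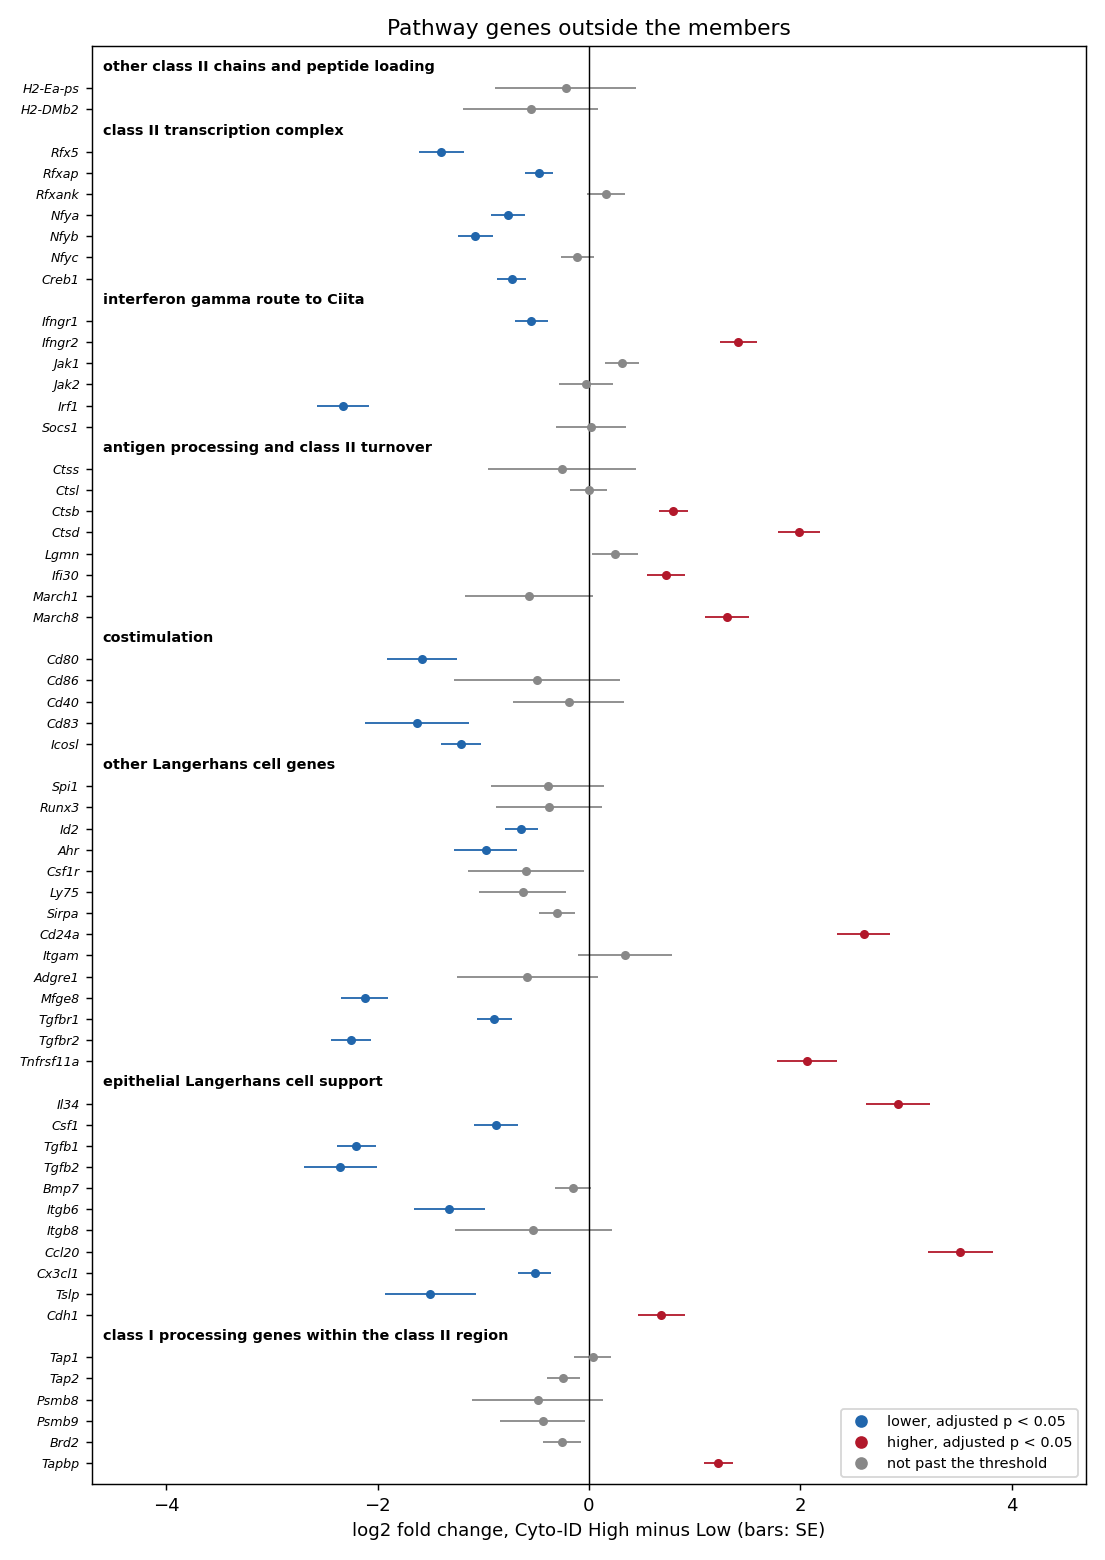
Fitted log2 fold change (High minus Low) with its SE for the fitted pathway genes that are no members (1 is not reported here and not drawn), grouped by list and coloured by edgeR's call. Points left of 0 dominate the transcription complex and costimulation lists, points right of 0 the antigen processing list, and Il34 and Ccl20 lie furthest right.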

How the data were processed

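The authors deposited raw counts per gene symbol for 8 libraries, with no normalization per the values; the submitters' processing notes name STAR 2.7.3, DESeq2 and build GRCm38, without their roles. The counting tool, annotation and strand setting are not given in the sources used here. The members and all lists were chosen with earlier results of these data known. Genes were kept by filterByExpr on the fraction (17344), scaled by TMM and fitted in R 4.3.3 with edgeR 4.0.16 (glmQLFit, glmQLFTest), with sex as a covariate, and p-values were adjusted by Benjamini-Hochberg over all genes at 0.05. Log2 CPM used a prior count of 2. Alternatives included DESeq2 1.42.0 and voom in limma 3.58.1. The fits were also run on simulated counts drawn without an effect of the mouse. Such counts do not stand for paired libraries, and nothing is read from them here. Each mouse's libraries were paired by its name in the labels. Their deviations correlated by 0.43, 0.32, −0.02 and 0.28 (Female1, Female2, Male1, Male2). Between unmatched libraries the values ran from −0.37 to 0.35, the highest for High Male1 with Low Female1. The pairing thus rests on the labels, and for Male1 these values do not bear it out. The fit with sex has no term for the mouse. Its p-values thus treat the libraries of a mouse as independent and do not separate spread between mice from spread within them. Exon lengths and positions came from GENCODE M21. Values are given for the members and, of each pathway list, for at most the 3 most abundant genes called in each direction; further called genes are named only. Values for uncalled genes with low libraries (Ctss, Psmb8, H2-Ea-ps, H2-DMb2) and for Pgc were added after they were seen. The values of 1 pathway gene are not reported here.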

Additional observations from a re-analysis of the deposited data

How the results depend on the processing

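The alternatives were other scalings (relative log expression, total counts), no filter or a floor of 10 counts per library, robust dispersions, limma-voom, DESeq2, no covariate, the mouse as a replicate block, and leaving out each library or each mouse. With the replicate block 9336 genes differed between the fractions, of which 8393 were among the 8440 of the fit with sex, and the same 5 members were called, so pairing changed no member's call. The number of differing genes ran from 8066 to 10708, and from 6563 to 8106 with libraries left out. The median of the members ran from −1.53 to −0.93, and from −1.17 to −0.71 with libraries left out. Pathway genes called lower numbered 20 to 27 (14 to 22 with libraries left out, the fewest without both Male2 libraries), and those called higher 8 to 13 (11 to 12). The members called lower were 6 under total counts (H2-DMa added) and under no filter (Cd74 added), 4 without both Female2 libraries (H2-Ab1 lost), and 4 of 7 fitted under the 10-count filter, which removed Cd207, Ciita and Itgax. Signs turned in 3 results. Ciita was −0.16 with total counts. H2-Aa ran from −1.20 to 0.086 with libraries left out, above 0 without High Male2 (0.01) and without both Male2 libraries (0.086). The leukocyte median ran from −0.88 to 0.10, above 0 in the same settings (0.05 and 0.10). Over the 207 values of single members under alternatives, 201 kept their sign and moved by less than their spread between mice. A further 3 kept their sign but moved by more, and 3 turned. No member was called for sex or its interaction under the alternatives run. Depth limits Cd207 most, with 3 to 7 counts in each High library.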
